A study of Homo sapiens with 21 samples.

Results

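The TRIM genes encode a family of ubiquitin ligases named after a tripartite motif of a RING domain, B-box zinc fingers and a coiled coil. The rows of the H1975 expression table whose symbol is TRIM followed by digits only were taken, which gave 58 of 34021 genes. Another 13 symbols in the table begin with TRIM but carry further letters, such as pseudogenes, antisense genes and read-through transcripts, and were not taken. H1975 is an established human lung adenocarcinoma line with mutant EGFR, the epidermal growth factor receptor. The 9 RNA-seq libraries of the series form 3 groups of 3, all at 8 days by their treatment labels. The extraction protocol shared by all samples names 3 days, and the labels do not settle this difference. OC cells, whose genotype is labelled cIGF1R overexpression, received osimertinib at 500 nM, which blocks mutant EGFR covalently, and overexpressed cIGF1R, a circular RNA of the insulin-like growth factor receptor gene IGF1R. OL+EV cells, labelled WT, received 500 nM osimertinib and 500 nM linsitinib, an inhibitor of the IGF1R and insulin receptor kinases, with EV. DMSO+EV cells, also labelled WT, received the vehicle DMSO with EV, a label that is not spelled out. Osimertinib is common to OC and OL+EV, and a group given EV and osimertinib without linsitinib is not among those analysed here. Linsitinib and the circular RNA therefore cannot be told apart between those 2 groups.

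In a TRIM protein the RING domain recruits a ubiquitin-conjugating enzyme, the B-boxes and the coiled coil drive assembly into dimers and higher-order lattices, and the C-terminal part, most often a PRY-SPRY domain, selects the target. A subset of the family is transcribed in response to interferon and acts in antiviral defence: TRIM5 recognises retroviral capsids, TRIM21 binds antibody carried into the cytosol, and TRIM25 modifies the RNA sensor RIG-I. Many interferon-induced genes carry a DNA element called the ISRE, whose core is a repeat of GAAA. Other members have unrelated duties, among them the chromatin corepressor TRIM28, which silences retroelements, and the muscle ligases TRIM54 and TRIM63.

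Windows of 300 bases around the annotated gene starts (250 before, 50 after) were searched for an ISRE-like pattern, GAAA and GAAA parted by any 2 bases, on either strand. RefSeq windows were at hand for 46 of the 58 members. A match stood in at least 1 window of 9 of these 46 genes (19.6%), against 1195 of all 27305 genes with a window (4.38%). Of the 12 members listed as interferon-linked, 11 had a window and 6 of those held a match: TRIM5, TRIM14, TRIM21, TRIM26, TRIM34 and TRIM69. The other 3 matches belonged to TRIM2, TRIM16 and TRIM44. The windows of TRIM6, TRIM25, TRIM31, TRIM38 and TRIM56 did not hold these letters, and TRIM22 had none to search. A match in letters is a description of the window and not evidence of binding.

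The 5 windows below belong to interferon-linked genes that were expressed in this line and held a match. They are shown because these genes were among the members that rose in OC. All are RefSeq sequence of GRCh38.p14, written 5′ to 3′ on the strand of the gene, with the ISRE-like letters in capitals.
TRIM5 (chr11:5685025-5685324, minus strand): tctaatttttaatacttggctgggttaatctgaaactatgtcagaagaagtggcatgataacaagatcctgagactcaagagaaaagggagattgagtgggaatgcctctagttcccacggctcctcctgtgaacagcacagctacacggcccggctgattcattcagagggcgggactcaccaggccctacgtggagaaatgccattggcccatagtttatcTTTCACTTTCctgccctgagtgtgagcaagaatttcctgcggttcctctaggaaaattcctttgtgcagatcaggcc
TRIM14 (chr9:98119173-98119472, minus strand): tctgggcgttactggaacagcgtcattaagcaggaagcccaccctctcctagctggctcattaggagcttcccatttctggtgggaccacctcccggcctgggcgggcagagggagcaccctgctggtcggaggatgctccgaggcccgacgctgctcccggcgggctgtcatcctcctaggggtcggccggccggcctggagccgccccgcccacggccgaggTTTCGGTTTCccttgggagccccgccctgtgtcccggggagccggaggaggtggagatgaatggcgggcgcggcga
TRIM21 (chr11:4393653-4393952, minus strand): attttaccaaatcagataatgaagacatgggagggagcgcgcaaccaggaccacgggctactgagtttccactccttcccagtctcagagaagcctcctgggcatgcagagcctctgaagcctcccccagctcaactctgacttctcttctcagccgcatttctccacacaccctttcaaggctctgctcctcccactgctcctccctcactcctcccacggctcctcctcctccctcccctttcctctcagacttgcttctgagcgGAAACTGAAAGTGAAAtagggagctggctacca
TRIM26 (chr6:30213357-30213656, minus strand): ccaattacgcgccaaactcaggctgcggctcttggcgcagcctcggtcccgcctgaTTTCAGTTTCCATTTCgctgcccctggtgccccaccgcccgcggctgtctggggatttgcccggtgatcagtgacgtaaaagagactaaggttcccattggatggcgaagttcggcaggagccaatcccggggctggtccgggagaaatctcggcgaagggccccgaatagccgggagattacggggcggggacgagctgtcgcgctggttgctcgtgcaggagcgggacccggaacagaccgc
TRIM34 (chr11:5624751-5625050, plus strand): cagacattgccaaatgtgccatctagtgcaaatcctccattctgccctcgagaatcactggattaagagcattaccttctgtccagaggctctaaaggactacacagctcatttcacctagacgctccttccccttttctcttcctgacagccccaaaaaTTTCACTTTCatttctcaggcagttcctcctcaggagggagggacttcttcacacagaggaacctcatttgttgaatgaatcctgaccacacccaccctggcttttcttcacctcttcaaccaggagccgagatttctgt

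The match began 27 bases before the start in TRIM5 and 26 bases before it in TRIM14. In TRIM34 it began 90 bases before 1 of 2 annotated starts. TRIM21 held a pair of overlapping matches just after its start, and TRIM26 an overlapping pair that began 194 bases before it.

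**Figure D1:**
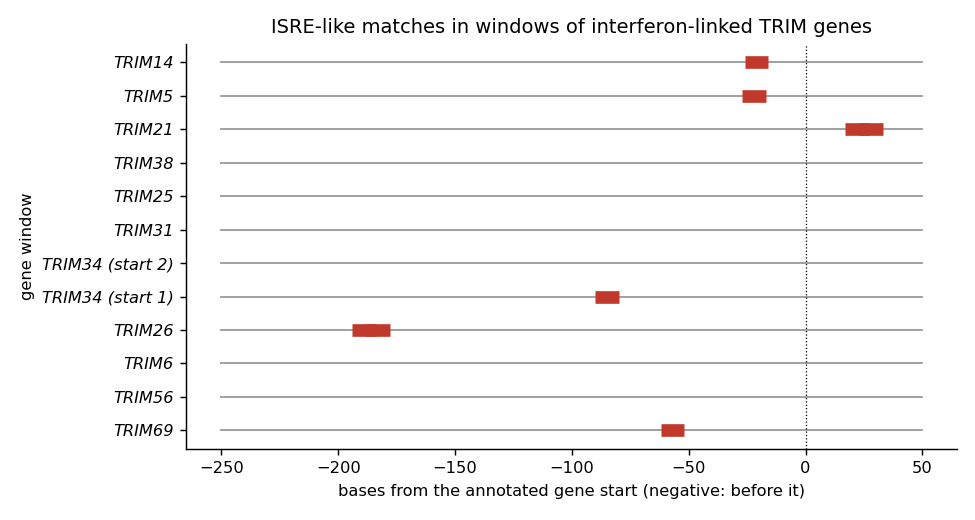
Each line is a window of 250 bases before to 50 bases after an annotated start of an interferon-linked TRIM gene, with position in bases on the x axis; red blocks mark ISRE-like matches (GAAA, any 2 bases, GAAA, either strand), the overlapping pairs of TRIM21 and TRIM26 merging into 1 longer block. The 6 genes with a match are TRIM5, TRIM14, TRIM21, TRIM26, TRIM34 and TRIM69, and rows run from the largest to the smallest log2 fold change in OC, with the untested TRIM69 last.

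The table names no unit. Its values have the properties of FPKM, fragments scaled to gene length and library size, and are called FPKM here. Totals lay between 338034 and 381311 in OC, 423319 and 432563 in OL+EV, and 429553 and 474156 in DMSO+EV. Read depth is unknown, so no counting interval is given, and the labels do not settle whether the RNase R step of the shared extraction protocol, which digests linear RNA, was applied to these libraries. The labels name no separate cultures, so the tests are set against a spread among libraries that may be technical in origin. IGF1R stood at 81.4, 82.3 and 101 FPKM in OC, 4.41, 3.56 and 3.73 in OL+EV and 3.76, 4.41 and 4.23 in DMSO+EV, with circular and linear transcripts not separated. Some libraries stood apart in small noncoding RNAs: RN7SL1 held 53.2, 3.16 and 6.37 FPKM in OC replicates 1 to 3, 25.8, 16.7 and 52.9 in OL+EV and 46.4, 443 and 36.1 in DMSO+EV. In some other genes OC replicate 3 stood apart, such as EGFR at 49.9, 49.6 and 30.4 FPKM and TRIM33 at 18.1, 19.4 and 12.8 in OC replicates 1 to 3. TRIM22 did not show this, at 146, 146 and 147 FPKM. All 7 lung epithelial markers were above 1 FPKM in at least 1 library of each group, with sums of 12490 to 15230 in OC, 13270 to 14440 in OL+EV and 11260 to 12520 in DMSO+EV.

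Tests used limma on log2(FPKM + 1), fitted over all 13775 genes with at least 1 FPKM in at least 3 libraries, with Benjamini-Hochberg adjustment over those genes and a threshold of 0.05. Of the 58 members, 44 passed this filter. The other 14 were never above 0.812 FPKM in any library. TRIM10, TRIM42 and TRIM55 were listed at 0 in all 9 libraries. The other 11 were TRIM9, TRIM15, TRIM36, TRIM40, TRIM50, TRIM61, TRIM63, TRIM67, TRIM69, TRIM71 and TRIM72: TRIM9 reached the 0.812 FPKM above, in OC, and TRIM63, a muscle-atrophy ligase, reached 0.106 FPKM in 1 OC library. The interferon-linked TRIM69 held 0.175, 0.106 and 0.179 FPKM in OC, 0.172, 0.132 and 0.212 in OL+EV and 0.16, 0.0845 and 0 in DMSO+EV. All 3 groups overlapped near 0, and its window held an ISRE-like match. Among the 44, TRIM22 passed the filter only through OC and TRIM54 only through DMSO+EV. TRIM22 therefore had to differ in the comparisons that involve OC, and TRIM54 in those that involve DMSO+EV. In bulk libraries a change in each cell and a change in the number of cells that express a gene cannot be told apart.

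The comparison of OC with DMSO+EV shows how cells under osimertinib with overexpressed cIGF1R differed from vehicle-treated cells. All 11 tested interferon-linked TRIM genes were higher in OC, by a median log2 fold change of 2.03 (range 1.15 to 7.03), whereas the median over all genes was -0.03. The list was chosen with earlier results of these data known, so its counts and medians are descriptions and not independent tests. Across the family 24 members rose and 14 fell of 44 tested. The rises here include TRIM22 and the falls include TRIM54, which had to differ after the filter. TRIM22 was not called in OL+EV against DMSO+EV (limma adjusted p = 0.172), nor TRIM54 in OC against OL+EV (limma adjusted p = 0.203). The background was high: 33.1% of all tested genes rose and 35.8% fell in this comparison, 69.0% in all. The libraries of the 2 groups did not overlap in 39 of the 44 members, against 69.8% of all tested genes. Members outside the interferon-linked list divided almost evenly, with 13 higher, 14 lower and 6 not passing of 33, and a median of 0.0008. A rise of at least 1 on the log2 scale was called for 14 members, of which 11 were interferon-linked, against 10.4% of all genes, and a fall of that size for 2, against 11.4%. Without DMSO+EV replicate 2 or OC replicate 1, the libraries with the most RN7SL1 in their groups, 24 members rose and 12 fell in both cases. Without OC replicate 3, 24 rose and 14 fell.

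TRIM22, an antiviral ligase of the nucleus and cytosol (chromosome 11 from 5689790 to 5710863, GRCh38), changed most. It stood at 146, 146 and 147 FPKM in OC, against 0.235, 0.25 and 0.238 in OL+EV and 0.171, 0.0777 and 0.125 in DMSO+EV. The 3 OC libraries lay close together and far above the other 6, which were all under 1 FPKM. The log2 fold change of OC against DMSO+EV was 7.03 (SE 0.08, limma adjusted p = 1.29e-15), and that of OC against OL+EV was 6.89 (adjusted p = 2.29e-15). Since TRIM22 passed the filter only through OC, these p-values add nothing to the levels themselves. The ratio of mean FPKM to DMSO+EV, 1174, rests on a denominator near 0.

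TRIM5, the capsid restriction factor (chromosome 11 from 5588635 to 5685074), held 52.9, 53.8 and 48.6 FPKM in OC, 5.22, 4.75 and 4.43 in OL+EV and 4.47, 4.85 and 5.84 in DMSO+EV. OC did not overlap either other group, while OL+EV and DMSO+EV overlapped. Against DMSO+EV the mean was 10.2 times as high in OC (log2 fold change 3.13, SE 0.10, limma adjusted p = 1.27e-11). TRIM14, a member without a RING that acts as an adaptor at the mitochondrial protein MAVS (chromosome 9 from 98035797 to 98119222), held 54.2, 54.6 and 48.1 FPKM in OC, 4.04, 3.9 and 3.61 in OL+EV and 4.67, 4.97 and 4.99 in DMSO+EV. Its OC mean was 10.7 times the DMSO+EV mean (log2 fold change 3.18, adjusted p = 2.83e-12). TRIM21, the cytosolic antibody receptor (chromosome 11 from 4384897 to 4393702), held 40.0, 39.9 and 44.8 FPKM in OC, 4.84, 5.09 and 4.17 in OL+EV and 3.59, 3.8 and 4.3 in DMSO+EV, a ratio of 10.7 to DMSO+EV (log2 fold change 3.12, adjusted p = 9.43e-12). In both genes the OC libraries stood well above the rest. OL+EV was lowest without overlap in TRIM14, and overlapped DMSO+EV in TRIM21.

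TRIM38, which limits signalling through TAB2 and TAB3 (chromosome 6 from 25962802 to 25991231), held 30.1, 31.7 and 30.3 FPKM in OC, 6.3, 7.12 and 6.97 in OL+EV and 3.79, 4.44 and 4.81 in DMSO+EV. Its 3 groups did not overlap, with OC on top and DMSO+EV lowest (log2 fold change of OC against DMSO+EV 2.57, limma adjusted p = 4.53e-11). TRIM25, the RIG-I ligase and partner of the antiviral protein ZC3HAV1 (chromosome 17 from 56887909 to 56914049), held 49.3, 50.2 and 40.7 FPKM in OC, 10.5, 9.46 and 9.32 in OL+EV and 9.28, 10.8 and 12 in DMSO+EV (log2 fold change 2.03, adjusted p = 2.43e-09). TRIM31, a ligase reported to act on MAVS (chromosome 6 from 30102897 to 30113090), held 9.11, 8.22 and 7.89 FPKM in OC, 1.15, 1.03 and 1.68 in OL+EV and 1.84, 1.6 and 1.05 in DMSO+EV (log2 fold change 1.93, adjusted p = 3.71e-08). OC stood apart in both genes and the other groups overlapped. With pseudocounts of 0.1 and 5 in place of 1, the TRIM31 log2 fold change was 2.45 and 1.05.

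Smaller rises were found in 4 interferon-linked members. TRIM34, a close relative of TRIM5 (chromosome 11 from 5619944 to 5644398), held 11.1, 12.5 and 13.9 FPKM in OC, 4.84, 4.77 and 5.79 in OL+EV and 3.56, 3.79 and 4.37 in DMSO+EV (log2 fold change 1.46 against DMSO+EV, limma adjusted p = 6.89e-08). TRIM26, a ligase of antiviral signalling encoded in the MHC region (chromosome 6 from 30184455 to 30213406), held 39.7, 39.9 and 33.5 FPKM in OC, 16.9, 17 and 14.2 in OL+EV and 14.3, 15.8 and 13.6 in DMSO+EV (log2 fold change 1.31, adjusted p = 1.07e-07). OC exceeded both other groups in each of these genes. TRIM6, which builds free ubiquitin chains that activate the kinase IKBKE (chromosome 11 from 5596111 to 5612952), held 4.61, 5.37 and 4.3 FPKM in OC, 2.73, 2.38 and 2.02 in OL+EV and 1.59, 1.4 and 1.76 in DMSO+EV (log2 fold change 1.15, adjusted p = 7.94e-07). TRIM56, a ligase linked to the STING pathway of DNA sensing (chromosome 7 from 101085481 to 101097967), held 25.4, 25.9 and 23.7 FPKM in OC, 14.1, 16.8 and 14.7 in OL+EV and 12.6, 9.46 and 10.3 in DMSO+EV (log2 fold change 1.15, adjusted p = 5.65e-07). In TRIM6 and TRIM56 the 3 groups did not overlap, and OL+EV lay between the other 2. The log2 fold change of TRIM6 was 1.53 and 0.57, and that of TRIM34 1.65 and 0.97, with pseudocounts of 0.1 and 5.

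**Figure D2:**
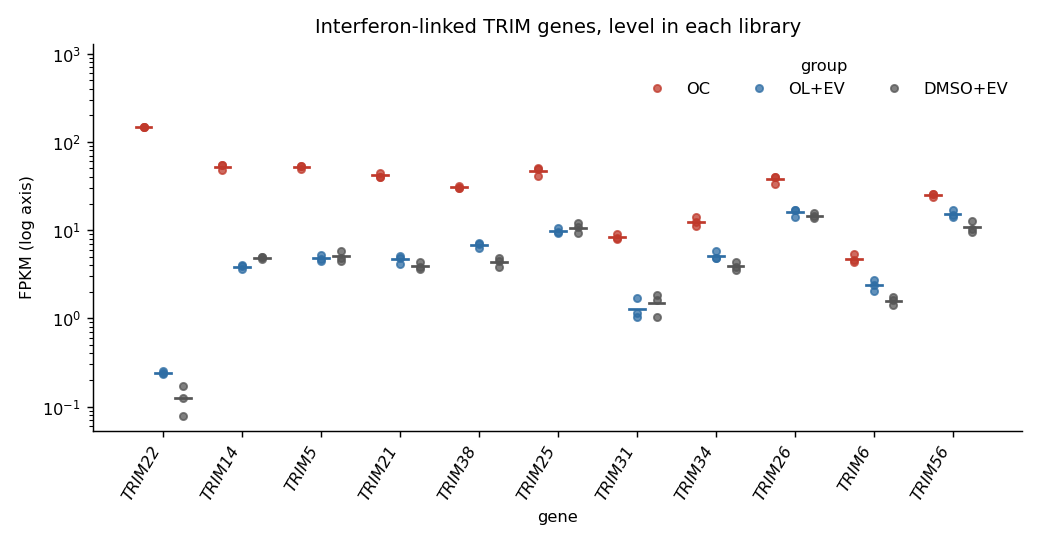
FPKM on a log axis of the 11 tested interferon-linked TRIM genes, with a point for each library and a bar at the mean of each group (OC, OL+EV, DMSO+EV). In every gene the 3 OC points lie above the other 6, with TRIM22 at 146 to 147 FPKM in OC and under 1 elsewhere.

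The order of levels within the family differed between the groups. TRIM28 was the most abundant member by FPKM in all 6 OL+EV and DMSO+EV libraries, at 31.1% to 31.8% of the summed FPKM of the 58 members in OL+EV and 32.3% to 35.1% in DMSO+EV. In OC it came second at 10.6% to 12.2%, and TRIM22 was first at 15.4% to 15.9%, having ranked 45 or 46 of 58 in the other libraries. The interferon-linked members together made up 48.1% to 49.3% of the summed TRIM FPKM in OC, 10.8% to 11.1% in OL+EV and 9.57% to 10.5% in DMSO+EV. The summed level was 922 to 949.6 FPKM in OC, 625 to 653 in OL+EV and 600.1 to 638 in DMSO+EV.

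**Figure D3:**
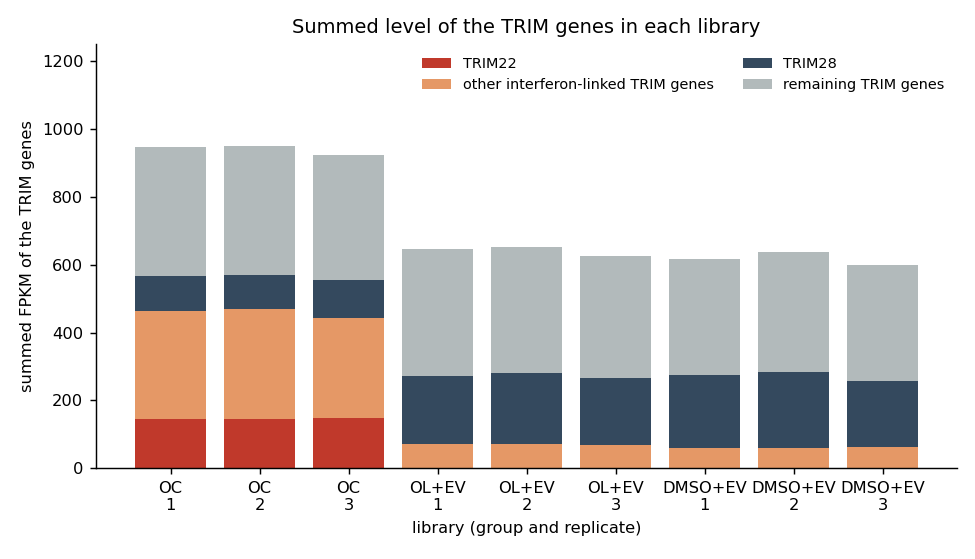
Summed FPKM of the 58 TRIM genes in each of the 9 libraries, stacked by TRIM22, the other interferon-linked members, TRIM28 and the remaining members. OC libraries reach 922 to 949.6, and the interferon-linked part is 48.1% to 49.3% of it, against 10.8% to 11.1% in OL+EV and 9.57% to 10.5% in DMSO+EV.

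By position, TRIM5, TRIM6, TRIM22 and TRIM34 form a cluster on chromosome 11, where TRIM5 and TRIM22 point away from each other across 4716 bases. All 4 rose in OC, from a ratio of 3 to DMSO+EV for TRIM6 to 1174 for TRIM22. In RefSeq the TRIM5 locus covers TRIM6 and TRIM34 on the opposite strand, and TRIM6 and TRIM34 share a read-through transcript. Whether counting used strand is not given in the sources used here, so the split of reads among TRIM5, TRIM6 and TRIM34 is uncertain. In and near the MHC region of chromosome 6, which 8 members share, TRIM26, TRIM31 and TRIM38 rose in OC and TRIM27 fell. TRIM39 there did not pass, at 4.44 ± 0.413 FPKM in OC and 4.64 ± 0.163 in DMSO+EV (SD, n = 3; limma adjusted p = 0.633), and TRIM10, TRIM15 and TRIM40 were at or near 0 throughout. TRIM31 has an antisense gene, TRIM31-AS1, with which it could share unstranded reads. Other members also overlap a gene on the opposite strand, among them TRIM7 (TRIM7-AS1 and TRIM7-AS2), TRIM14 (NANS) and TRIM66 (RPL27A). Their reads are subject to the same limit.

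Members outside the interferon-linked list moved both ways. TRIM29, a RING-less member of stratified and basal epithelia (chromosome 11 from 120111286 to 120138113), had the largest rise among them on the log2(FPKM + 1) scale. It held 69.3, 67.8 and 68.6 FPKM in OC, 45.1, 42.3 and 39.7 in OL+EV and 24.6, 33.8 and 31.4 in DMSO+EV, with no overlap among the 3 groups (log2 fold change 1.18 for OC and 0.50 for OL+EV against DMSO+EV, limma adjusted p = 6.39e-07 and 0.00217). TRIM4 followed at 6.68, 6.83 and 6.88 FPKM in OC, 4.75, 5.42 and 4.4 in OL+EV and 2.36, 2.84 and 2.94 in DMSO+EV, again without overlap (log2 fold change 1.07 for OC and 0.66 for OL+EV). TRIM68, a coactivator of the androgen receptor, held 3.81, 3.62 and 3.15 FPKM in OC, 1.71, 1.64 and 1.77 in OL+EV and 1.17, 1.07 and 1.45 in DMSO+EV (log2 fold change 1.02 for OC, adjusted p = 9.65e-07). The order of these 3 depended on the scale: the ratio of mean FPKM in OC to DMSO+EV was 2.29 for TRIM29, 2.5 for TRIM4 and 2.86 for TRIM68. With pseudocounts of 0.1 and 5, the OC value of TRIM29 was 1.21 and 1.08, that of TRIM4 1.30 and 0.61 and that of TRIM68 1.45 and 0.45.

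TRIM62, a ligase tied to epithelial polarity (chromosome 1 from 33145399 to 33182043), rose in both treated groups, which overlapped. It held 13.6, 13.1 and 9.76 FPKM in OC, 12.5, 12.1 and 12.2 in OL+EV and 5.65, 6.36 and 5.85 in DMSO+EV. The log2 fold changes against DMSO+EV were 0.91 for OC and 0.93 for OL+EV, and OC against OL+EV gave -0.02 (SE 0.11, limma adjusted p = 0.882). TRIM17, a mostly neuronal member, also rose in both, at 7.38, 7.28 and 5.93 FPKM in OC, 5.16, 5.25 and 5.94 in OL+EV and 4.1, 3.64 and 2.6 in DMSO+EV.

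TRIM28, the corepressor of KRAB zinc finger proteins (chromosome 19 from 58544064 to 58550715), fell in OC. It held 105, 101 and 113 FPKM there, against 201, 207 and 199 in OL+EV and 215, 224 and 194 in DMSO+EV. OC did not overlap the other groups, which overlapped each other. The fall was 0.98 on the log2 scale against DMSO+EV (SE 0.10, limma adjusted p = 8.63e-07), where OL+EV had a log2 fold change of -0.06 (adjusted p = 0.643), and OC against OL+EV gave -0.93 (adjusted p = 3.30e-06). The other TIF1 chromatin readers divided. TRIM24 and TRIM33 rose in OC, by 0.47 and 0.52 on the log2 scale (adjusted p = 0.00151 and 0.00361), and the RING-less TRIM66 fell by 0.36 (adjusted p = 0.00641). TRIM33 held 18.1, 19.4 and 12.8 FPKM in OC and 11.2, 10.2 and 12.4 in DMSO+EV, so OC replicate 3 lay close to the vehicle range. TRIM66 held 1.46, 1.46 and 1.07 FPKM in OC, 2.17, 2.24 and 2.55 in OL+EV and 2.1, 1.86 and 2.01 in DMSO+EV. With pseudocounts of 0.1 and 5 the log2 fold change was 0.59 and 0.24 for TRIM24 and -0.56 and -0.14 for TRIM66.

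TRIM27, a ligase of the endosomal WASH complex (chromosome 6 from 28903002 to 28923985), held 13.1, 12.5 and 12.6 FPKM in OC, 21.1, 21.6 and 18.6 in OL+EV and 22.9, 26.4 and 25.7 in DMSO+EV, a ratio of OC to DMSO+EV of 0.508 (log2 fold change -0.92, limma adjusted p = 9.86e-07). TRIM47 and TRIM65, neighbours on chromosome 17, both fell in OC: TRIM47 held 8.5, 8.56 and 9.29 FPKM in OC and 13.3, 14.1 and 12.5 in DMSO+EV, and TRIM65, a ligase of the RNA sensor IFIH1, held 2.76, 2.91 and 2.91 in OC and 4.3, 4.2 and 3.97 in DMSO+EV. Neither pair of groups overlapped (adjusted p = 8.19e-05 and 0.00126). TRIM52 fell as well, at 7.04, 8.18 and 6.82 FPKM in OC and 14.3, 9.05 and 9.8 in DMSO+EV (adjusted p = 0.00592). With pseudocounts of 0.1 and 5, TRIM65 gave -0.53 and -0.22 in place of -0.42.

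TRIM7 and TRIM54, both at low levels, had the largest falls in each treated group, and in OC the more abundant TRIM28 and TRIM27 came next. TRIM7, a glycogenin-binding ligase (chromosome 5 from 181193924 to 181205196), held 1.07, 1.3 and 1.54 FPKM in OC, 1.85, 2.14 and 2.47 in OL+EV and 6.11, 5.02 and 5.2 in DMSO+EV, with no overlap among the groups (log2 fold change -1.48 for OC and -1.03 for OL+EV, limma adjusted p = 8.27e-08 and 6.62e-06). TRIM54, the muscle ring finger protein of microtubules (chromosome 2 from 27282429 to 27307435), held 0.385, 0.863 and 0.468 FPKM in OC, 0.796, 0.776 and 0.76 in OL+EV and 2.95, 3.14 and 2.33 in DMSO+EV (log2 fold change -1.28 for OC and -1.09 for OL+EV). Both fell in both treated groups. With pseudocounts of 0.1 and 5 the OC value was -1.99 and -0.73 for TRIM7 and -2.17 and -0.49 for TRIM54. TRIM59, a transmembrane member, held 1.94, 1.93 and 1.75 FPKM in OC, 1.46, 1.64 and 1.39 in OL+EV and 3.49, 2.42 and 3.57 in DMSO+EV, and fell by 0.52 in OC and by 0.73 in OL+EV on the log2 scale. Its locus lies in the read-through transcript TRIM59-IFT80, so its reads may be divided.

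**Figure D4:**
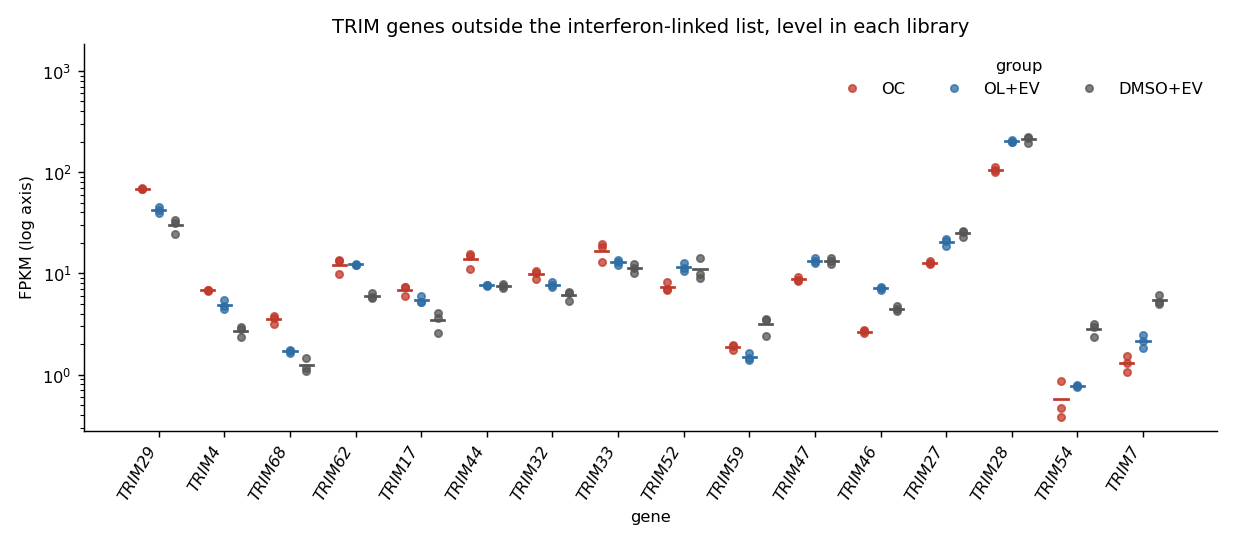
FPKM on a log axis of the 8 largest rises and 8 largest falls in OC against DMSO+EV among TRIM genes outside the interferon-linked list, ordered from the largest rise to the largest fall, with a point for each library and a bar at each group mean. TRIM28 stands at 101 to 113 FPKM in OC and 194 to 224 in DMSO+EV.

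Of the NHL-repeat members, a group that includes RNA-binding regulators, TRIM2 and TRIM32 rose in OC and TRIM3 fell. TRIM32, mutated in a limb-girdle muscular dystrophy, held 9.98, 10.5 and 8.87 FPKM in OC, 8.23, 7.75 and 7.28 in OL+EV and 5.38, 6.44 and 6.59 in DMSO+EV (log2 fold change 0.60 for OC, limma adjusted p = 0.000139). TRIM2, a neuronal ligase, held 6.43, 6.86 and 4.84 FPKM in OC and 3.99, 4.04 and 4.91 in DMSO+EV. Its groups overlapped, and without OC replicate 2 the call was lost (adjusted p = 0.0511). TRIM3 moved in opposite directions in the treated groups: it held 1.8, 1.64 and 1.66 FPKM in OC, 4.14, 4.21 and 3.58 in OL+EV and 2.88, 2.25 and 2.72 in DMSO+EV, and OC against OL+EV gave a log2 fold change of -0.88 (SE 0.10, adjusted p = 8.72e-06). TRIM71, a stem cell regulator, stayed under 1 FPKM. The pseudocounts of 0.1 and 5 gave 0.47 and 0.24 for TRIM2, and -0.58 and -0.18 for TRIM3, in OC against DMSO+EV.

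Among the RING-less members, TRIM14 and TRIM29 are described above. TRIM44 rose in OC, at 14.8, 15.6 and 11 FPKM in OC, 7.48, 7.72 and 7.67 in OL+EV and 7.55, 7.1 and 7.88 in DMSO+EV (log2 fold change 0.79, limma adjusted p = 3.61e-05). TRIM16, a stress-linked member, held 55.5, 55.6 and 55.2 FPKM in OC, 57, 56.7 and 49.3 in OL+EV and 62.1, 73.1 and 63.4 in DMSO+EV. It was called lower in both treated groups (adjusted p = 0.0353 and 0.0269). In OC the call was lost in 9 of 19 alternatives, and reads may be divided with its close copy TRIM16L. TRIM8 was also called lower in OC (log2 fold change -0.22, adjusted p = 0.0404) and lost the call in 11 of 19 alternatives. TRIM11, TRIM35 and TRIM39 passed in none of the 3 comparisons, with limma adjusted p between 0.303 and 0.936. TRIM23, which carries an ARF GTPase domain, was higher in OC (log2 fold change 0.52, adjusted p = 0.00195), and TRIM41 was not called there (0.16, adjusted p = 0.09).

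The comparison of OL+EV with DMSO+EV shows the family under both kinase inhibitors. Here 18 members rose and 7 fell of 44 tested, against 29.0% of all tested genes that rose and 23.5% that fell, 52.6% in all, and the median log2 fold change was 0.16 in the family and 0.05 over all genes. The groups did not overlap in 28 members, against 61.9% of all genes. Median-of-ratios rescaling gave 13 members higher and 7 lower, and put the share of higher genes among all calls at 46.1%, against 55.2% as reported. Changes were small: 1 member rose and 2 fell by at least 1 on the log2 scale, against 3.65% and 5.54% of all genes. Without DMSO+EV replicate 2, or without OL+EV replicate 3, the number of falls was 3, the calls of TRIM8, TRIM14, TRIM16 and TRIM27 being lost in both cases. TRIM7, TRIM54 and TRIM59 kept theirs. Those 3 falls were the largest of the 7, and TRIM54 among them passed the filter only through DMSO+EV.

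In OL+EV the 11 interferon-linked members had a median log2 fold change of 0.14: 4 rose, 1 fell and 6 missed the threshold. The share called was 45.5%, against 52.6% of all tested genes. TRIM38 rose by 0.55 (SE 0.10, limma adjusted p = 0.000309), TRIM56 by 0.47 (adjusted p = 0.00259), TRIM6 by 0.38 (adjusted p = 0.0113) and TRIM34 by 0.32 (adjusted p = 0.0261). The call of TRIM34 was lost in 5 of 19 alternatives and that of TRIM6 without OL+EV replicate 1 (adjusted p = 0.059). TRIM14 fell by 0.28 (adjusted p = 0.0176), a call lost in 4 of 19 alternatives. TRIM5, TRIM21, TRIM22, TRIM25, TRIM26 and TRIM31 did not pass. TRIM22 at these levels lay below the pseudocount, so its log2 fold change of 0.14 is compressed, and its ratio was 1.93 with no overlap of the groups. For OL+EV the 0.1 and 5 pseudocounts gave 0.64 and 0.34 for TRIM38, 0.55 and 0.16 for TRIM6 and 0.38 and 0.19 for TRIM34.

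The rises in OL+EV were led by members outside the interferon-linked list. TRIM73, a near-identical copy of TRIM74 on chromosome 7, held 1.17, 1.25 and 1.27 FPKM in OC, 3.14, 3.16 and 3.65 in OL+EV and 1.04, 1.08 and 0.84 in DMSO+EV (log2 fold change of OL+EV 1.12, limma adjusted p = 6.06e-07). TRIM74 held 13.8, 12.8 and 13.9 FPKM in OC, 19, 20.1 and 22.1 in OL+EV and 21, 15.2 and 17 in DMSO+EV. How reads were shared between these copies is unknown, so both values are uncertain. TRIM62 and TRIM45, a member with a filamin-type domain, came next, the TRIM45 level being 7.63, 7.04 and 6.97 FPKM in OC, 10.3, 10.0 and 9.9 in OL+EV and 5.8, 4.52 and 4.78 in DMSO+EV. Its log2 fold change was 0.88 in OL+EV and 0.45 in OC, and OC lay below OL+EV (log2 fold change -0.43, adjusted p = 0.00184). TRIM37, a ligase that restrains centrosome assembly, rose to 6.37, 6.22 and 6.43 FPKM in OC and 7.04, 6.81 and 6.69 in OL+EV, against 4.33, 3.97 and 4.4 in DMSO+EV.

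TRIM46, which bundles microtubules at the base of axons (chromosome 1 from 155173849 to 155184971), was higher in OL+EV and lower in OC. It held 2.57, 2.75 and 2.67 FPKM in OC, 7.23, 7.29 and 6.88 in OL+EV and 4.45, 4.71 and 4.2 in DMSO+EV, with no overlap among the groups. Against DMSO+EV the log2 fold change was -0.57 in OC and 0.58 in OL+EV (limma adjusted p = 5.44e-05 and 9.92e-05), and OC against OL+EV gave -1.15 (SE 0.09, adjusted p = 1.62e-07). TRIM46 and TRIM3 were the members called in opposite directions in the treated groups among those outside the interferon-linked list, and TRIM14 was so among the interferon-linked ones. TRIM13, an endoplasmic reticulum ligase, held 1.56, 1.89 and 1.86 FPKM in OC, 2.33, 2.61 and 2.44 in OL+EV and 1.9, 1.68 and 1.73 in DMSO+EV, and rose in OL+EV by 0.32 (adjusted p = 0.0113).

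**Figure D5:**
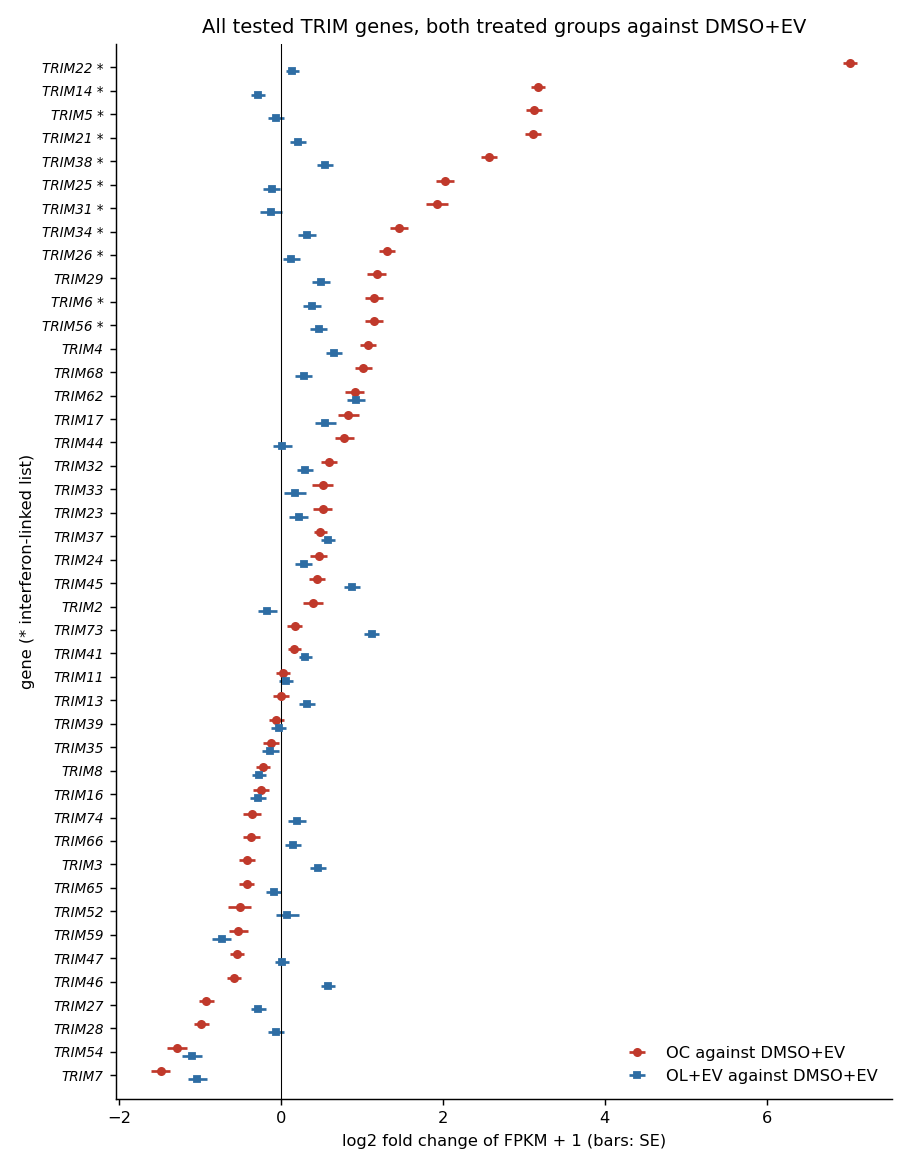
Log2 fold change of FPKM + 1 (points, with SE bars) of the 44 tested TRIM genes in OC (circles) and OL+EV (squares) against DMSO+EV, ordered by the OC value, with interferon-linked genes starred. The 11 starred genes run from 1.15 to 7.03 in OC and from -0.28 to 0.55 in OL+EV, and both comparisons share the DMSO+EV libraries.

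Set directly against OL+EV, OC had 19 members higher and 13 lower of 44, against 25.9% and 34.8% of all tested genes, 60.7% in all, with a family median log2 fold change of 0.12 and a median over all genes of -0.09. The groups did not overlap in 34 members, against 68.1% of all genes. All 11 interferon-linked members were higher in OC (median 2.05, range 0.68 to 6.89). TRIM22, which had to differ after the filter, is among them. After TRIM22 the largest log2 fold changes were those of TRIM14 (3.46), TRIM5 (3.19), TRIM21 (2.90), TRIM25 (2.15), TRIM31 (2.05), TRIM38 (2.02) and TRIM26 (1.18), and the smallest was that of TRIM56. Of the 33 others, 8 were higher, 13 lower and 12 missed the threshold, and their median was -0.04. At a size of at least 1 on the log2 scale, 9 were higher, all of them interferon-linked, and 1 was lower, against 6.58% and 4.38% of all genes. The lower one was TRIM46, followed by TRIM73 (-0.95), TRIM28 (-0.93), TRIM3 (-0.88), TRIM27 (-0.64), TRIM52 (-0.59), TRIM74 (-0.56) and TRIM47 (-0.56). Median-of-ratios rescaling moved the median of all genes by 0.12 in this comparison and gave 22 members higher and 11 lower. The share of higher genes among all calls was then 54.9%, against 42.7% as reported.

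Genes with the TRIM structure but other symbols were sparse in this line, with 3 of 8 tested. PML, the organiser of nuclear bodies and an interferon target, held 61.3, 65.4 and 57.5 FPKM in OC, 12.9, 12.8 and 11.8 in OL+EV and 9.43, 10.8 and 9.13 in DMSO+EV, with no overlap (log2 fold change of OC 2.53 and of OL+EV 0.33 against DMSO+EV, limma adjusted p = 4.15e-11 and 0.00941). MID1, a microtubule-bound ligase, rose in OC at 13.2, 13.1 and 9.38 FPKM, against 6.72, 6.66 and 7.16 in DMSO+EV. RNF207, a cardiac member, fell to 6.71, 6.6 and 4.89 FPKM in OC, against 12, 10.7 and 9.43 in DMSO+EV. In OL+EV neither MID1 nor RNF207 passed (adjusted p = 0.623 and 0.584).

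Partners and targets of the interferon-linked proteins, from RIG-I to the interferon response, rose with them in OC: 15 of 19 tested were higher, 1 lower and 3 did not pass, with a median log2 fold change of 1.85, where 33.1% of all tested genes were higher and 35.8% lower. This list too was chosen with earlier results of these data known. ISG15, a ubiquitin-like modifier, had the largest change, at 3361 ± 818 FPKM in OC and 24 ± 1.74 in DMSO+EV (SD, n = 3), followed by IFIH1 at 70.8 ± 1.03 in OC and 0.771 ± 0.163 in DMSO+EV. DDX58, which encodes RIG-I, stood at 121 ± 3.15 FPKM in OC and 2.31 ± 0.192 in DMSO+EV. IRF3, which is activated by phosphorylation, was the one that fell (log2 fold change -0.28, limma adjusted p = 0.0375), and MAVS did not pass (-0.06, adjusted p = 0.666). The IRF3 groups overlapped, at 74.3, 74.9 and 96.7 FPKM in OC and 102, 102 and 93.1 in DMSO+EV. IFNB1, the gene of interferon beta, held 2.03, 1.72 and 2.43 FPKM in OC and was listed at 0 in the other 6 libraries, so it passed the filter through OC alone. It had to differ, and it is counted among the higher genes in both comparisons of OC. In OL+EV 9 of the 19 were higher and 2 lower, so 57.9% were called, near the 52.6% of all genes. Their median was 0.28, and the largest changes were those of IRF9 (1.35), IRF7 (1.11) and CGAS (-0.9992), the sensor of cytosolic DNA. Against OL+EV, OC had 14 of the 19 higher and 1 lower (25.9% and 34.8% of all genes), led by ISG15 (6.29), IFIH1 (4.90) and DDX58 (4.78).

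Of 13 tested ubiquitin-conjugating enzymes that TRIM ligases use, 4 were higher, 5 lower and 4 did not pass in OC against DMSO+EV, with a median log2 fold change of -0.15. The share called, 69.2%, was near that of all genes, 69.0%. UBE2L6, the enzyme that conjugates ISG15, stood out at 477 ± 36.9 FPKM in OC, 41.2 ± 6.22 in OL+EV and 22.7 ± 4.35 in DMSO+EV (SD, n = 3; log2 fold change 4.35 for OC). UBE2N, which builds nondegradative ubiquitin chains in immune signalling, fell to 5.34 ± 0.741 FPKM in OC and 6.28 ± 0.162 in OL+EV, against 12.1 ± 0.812 in DMSO+EV. UBE2E3 fell by 0.80 on the log2 scale in both OC and OL+EV. In OL+EV 3 of the 13 rose and 5 fell, with a median of -0.17 (29.0% and 23.5% of all genes). OC had 3 higher and 2 lower than OL+EV, against 25.9% and 34.8% of all genes.

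Since several interferon-linked members are abundant in blood cells, markers of other cell types were read in the same libraries. Of 8 leukocyte markers in the table, 5 were under 1 FPKM in all libraries of each group, CD3E was listed at 0 in all OC libraries, and the common leukocyte marker PTPRC averaged 0.0117 ± 0.0203 FPKM in OC and 0.0104 ± 0.00977 in DMSO+EV (SD, n = 3). The summed level was 429.6 to 456 FPKM in OC, 30.2 to 35.2 in OL+EV and 25.3 to 32.9 in DMSO+EV, nearly all of it from CD68, a lysosomal glycoprotein, at 428 ± 15.2 FPKM in OC and 25.1 ± 3.51 in DMSO+EV. All 3 tested leukocyte markers were higher in OC than in DMSO+EV, the other two being CSF1R at 7.28 ± 0.751 FPKM in OC and 3.14 ± 0.666 in DMSO+EV (limma adjusted p = 5.43e-06) and CD14 at 3.07 ± 0.937 in OC and 1.6 ± 0.345 in DMSO+EV (adjusted p = 0.0153). Sums over 5 fibroblast markers ran from 5.60 to 6.10 in OC, 3.35 to 3.71 in OL+EV and 3.38 to 3.75 in DMSO+EV, and over 4 endothelial markers from 0.783 to 0.972 in OC, 0.171 to 0.24 in OL+EV and 3.55 to 4.13 in DMSO+EV. CDH5 had the highest level of the endothelial markers in each group, at 0.482 FPKM in OC, 0.114 in OL+EV and 3.37 in DMSO+EV. By mean FPKM, VWF and TEK were higher in OC than in DMSO+EV and PECAM1 was lower, all under 1 FPKM. The part of these other cell types in the results was not tested beyond these levels.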

How the data were processed

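RNA-seq of 9 H1975 libraries was analysed. The series' 12 circular RNA samples did not enter. The authors deposited 1 value per gene and library, normalized before deposit and taken here from the values' properties to be FPKM, since neither the table nor the labels name the unit. Tools and build named in the submitters' processing notes are STAR, edgeR, Bowtie2 2.1.0 and hg38, without a role for each. For the counter, the annotation and the strand setting, each is not given in the sources used here. Read depth is unknown, and no whole-read steps were found in the values.

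Groups were taken from the labels. R 4.3.3 and limma 3.58.1, with its trend and robust options, were applied to log2(FPKM + 1) in 1 fit over the 9 libraries with group as the only term, for 3 comparisons. Genes needed at least 1 FPKM in at least 3 libraries, and adjustment (Benjamini-Hochberg) ran over 13775 genes. On simulated data for 13775 genes, 100 genes were changed by 1 on the log2 scale and another 100 by 2. Of the first set, 100, 99 and 98 were recovered in OC against DMSO+EV, OL+EV against DMSO+EV and OC against OL+EV. Of the second set, all 100 were recovered each time, and false calls numbered 15, 5 and 15. A far smaller share of genes changed there than the 69.0%, 52.6% and 60.7% called in the real data. The changed genes were drawn only from genes above a set mean level in DMSO+EV. Recovery was not broken down by expression level, so it gives no sensitivity for members at a few FPKM. Tables and figures used Python 3.11.15, pandas 2.3.3, numpy 2.4.6 and matplotlib 3.10.9. Promoter windows and gene positions are from RefSeq GRCh38.p14. The members and gene lists were chosen with earlier results of these data known. Named with values were the tested interferon-linked members, the 8 largest rises and falls per comparison, and called members of the chromatin, NHL, RING-less and MHC lists. TRIM4, TRIM8, TRIM11, TRIM13, TRIM17, TRIM23, TRIM35, TRIM41, TRIM45, TRIM65 and TRIM68 were added where that rule did not name them, after their values were seen. Alternatives were other scalings, pseudocounts, filters, a replicate block, a fit without a trend, fits of the compared groups alone, a fold threshold and each library left out. A search for another promoter pattern is not reported here.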

Additional observations from a re-analysis of the deposited data

How the results depend on the processing

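No called member reversed its direction under any of the 19 alternatives run. Of the members called in OC against DMSO+EV, 34 of 38 lost it in none of the alternatives that tested them, and the 11 interferon-linked rises were among these 34. The numbers were 14 of 25 in OL+EV against DMSO+EV and 27 of 32 in OC against OL+EV. Requiring a log2 fold change of at least 1 left 14 higher and 2 lower in OC against DMSO+EV, 1 higher and 2 lower in OL+EV against DMSO+EV, and 9 higher and 1 lower in OC against OL+EV. A filter at 5 FPKM, with fewer members tested, left 9 lower in OC against DMSO+EV and 8 lower in OC against OL+EV. Leaving out each library in turn gave 23 to 24 higher and 12 to 14 lower in OC against DMSO+EV, 14 to 19 higher and 3 to 7 lower in OL+EV against DMSO+EV, and 16 to 20 higher and 12 to 14 lower in OC against OL+EV. Median-of-ratios rescaling moved the share of higher calls over all genes in OC against OL+EV to 54.9%, against 42.7% as reported. Same-numbered libraries did not deviate together (r of -0.315 to 0.0358, own number best in 1 of 18 checks), so the numbers were not taken to pair them. With the replicate number as a block, 24 members were higher and 12 lower in OC against DMSO+EV, 17 and 7 in OL+EV against DMSO+EV, and 18 and 13 in OC against OL+EV. Changes of members at a few FPKM depend most on the pseudocount, and with depth unknown their counting error cannot be given.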
